A study of Homo sapiens with 12 samples.

Results

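The 44 genes described here encode proteins of homologous recombination, of the Fanconi anaemia pathway and of the signalling that follows a DNA break. They were taken from a list of symbols and matched to the deposited counts through their Ensembl identifiers. All 44 were found and all 44 passed the filter on low counts, among 21803 genes tested and 60660 gene identifiers counted.

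Homologous recombination repairs a double-strand break by copying the sister chromatid. The MRN complex (MRE11, RAD50, NBN) senses the end, nucleases resect it to single-stranded DNA, and BRCA1, PALB2 and BRCA2 load the recombinase that searches for the matching sequence. The Fanconi proteins act where the 2 strands of a helix are crosslinked: a core complex ubiquitinates the pair FANCD2 and FANCI, which then recruit nucleases and recombination factors. The kinases ATM and ATR signal the damage to CHEK1 and CHEK2 and mark the chromatin at breaks through the histone H2AX. Doxorubicin, an anthracycline used against breast cancer, traps topoisomerase II on cut DNA and so leaves double-strand breaks.

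Total RNA was sequenced from cells labelled HS578T, an established mesenchymal line of triple-negative breast cancer, 48 h after the start of treatment. The libraries fall into 4 groups of 3. Cells titled 17PKO, labelled as having lost 1 of their 2 copies of the short arm of chromosome 17 (17p), received 1 µM doxorubicin or the vehicle DMSO. Cells titled Cas9, with 17p intact, received 170 nM doxorubicin or DMSO. They are called 17p-deleted and 17p-intact below, after their labels. The labels give neither the guides nor whether the 17p-deleted cells are 1 clone or a pool, nor whether replicates are separate cultures. P-values therefore reflect the variation among these libraries alone, and that variation may be technical. Because the doses differ, genotype and dose cannot be told apart wherever treated 17p-deleted cells are compared with treated 17p-intact cells. In bulk RNA, fewer cells that express a gene and less of its RNA per cell cannot be told apart either.

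Library totals ran from 66150539 to 99142099 counts, so that the limit of detection, taken as 3 counts in a library, was 0.0303 to 0.0454 CPM (counts per 1000000). This covers counting error only. The 399 tested genes of 17p had a median log2 fold change of -0.12 in 17p-deleted against 17p-intact cells in DMSO, and all other genes had 0.04. That shift is smaller than levels in proportion to a lost copy would give, and POLR2A, on 17p, had 0.32 (SE 0.16, edgeR adjusted p = 0.151), so 17p-deleted is used here as the name of a label only. Judged by transcripts specific to certain chromosomes, 12 of 12 libraries were unlike the labelled line. The summed level of 7 mesenchymal markers was 5151 to 5285 CPM in treated 17p-deleted libraries and 6020 to 6524 CPM in 17p-deleted libraries in DMSO. It was 6784 to 7156 CPM in treated 17p-intact libraries and 7840 to 8158 CPM in 17p-intact libraries in DMSO, and the part of this drift in the results was not tested. The 7 luminal, epithelial or hormone receptor markers summed to 104 to 107 CPM in treated 17p-deleted libraries and 93.2 to 127 CPM in 17p-deleted libraries in DMSO. They summed to 113 to 137 CPM in treated 17p-intact libraries and 116 to 125 CPM in 17p-intact libraries in DMSO. Most of this was ERBB2, at 72.6 to 114 CPM, and GATA3, at 12.9 to 23.3 CPM. KRT19 reached at most 2.11 CPM, ESR1, PGR, EPCAM and CDH1 reached at most 0.167, 0.0768, 0.315 and 0.441 CPM, and the 4 blood markers together at most 0.760 CPM. Replicate 2 of the 17p-deleted DMSO group and replicate 1 of the treated 17p-intact group stood apart by their share of mitochondrial counts, which was 6.90% and 5.54% against 2.61% to 3.57% in the other 10 libraries. The members varied most in the first of these and in replicate 2 of the treated 17p-intact group. Their median absolute difference from the mean of the group's other libraries was 0.283 and 0.282 (log2).

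Per kilobase of exon, the levels of the members spanned a wide range. In treated 17p-deleted cells the mean level was highest for H2AX, the histone variant phosphorylated at breaks, at 46.3 RPKM (reads per kilobase and per 1000000 counts), followed by FANCI at 41.8, RAD51AP1 at 40.8 and EXO1 at 40.6 RPKM. The lowest were RAD50 at 0.746 RPKM and FANCG at 0.842 RPKM. The level of RAD50, the ATPase of the MRN complex, is uncertain, since 79.7% of its exon bases lie under another annotated gene on the same strand and reads that fall in both can go uncounted. RAD54B (59.1%) and ATRIP (27.9%) also had a sizeable stretch shared on the same strand, and are uncertain for the same reason. Members with a sizeable stretch shared on the opposite strand were XRCC3 (76.7%, with KLC1), TP53BP1 (28.7%), RAD54L (25.1%), FANCA (23.6%) and FANCL (19.7%). The strand setting of the counting is not given in the sources used here, so the genes with opposite-strand stretches are uncertain as well. The members lie on 20 chromosomes, 4 of them on chromosome 17 (BRCA1, BRIP1, RAD51C and RAD51D), and 0 of the 44 lie on 17p.

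The first comparison asked what 1 µM doxorubicin did in 17p-deleted cells. Of the 44 members 16 rose and 3 fell at an adjusted p under 0.05 (edgeR quasi-likelihood test, Benjamini-Hochberg over 21803 genes), while 25 did not pass. Among all genes tested 17.5% rose and 13.1% fell. The median log2 fold change of the members was 0.25, with 32 of 44 above 0 and a range of -0.66 to 0.81, against a median of -0.02 over all genes tested. The median GC content was 42.3% for the members and 49.2% for the genes tested. With each library's trend with GC content removed, the median log2 fold changes were 0.23 and -0.13. Changes of single members below are on the log2 scale. Without the 2 libraries of high mitochondrial share 22 members rose and 4 fell, beside 18.9% and 16.2% of all genes.

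**Figure D1:**
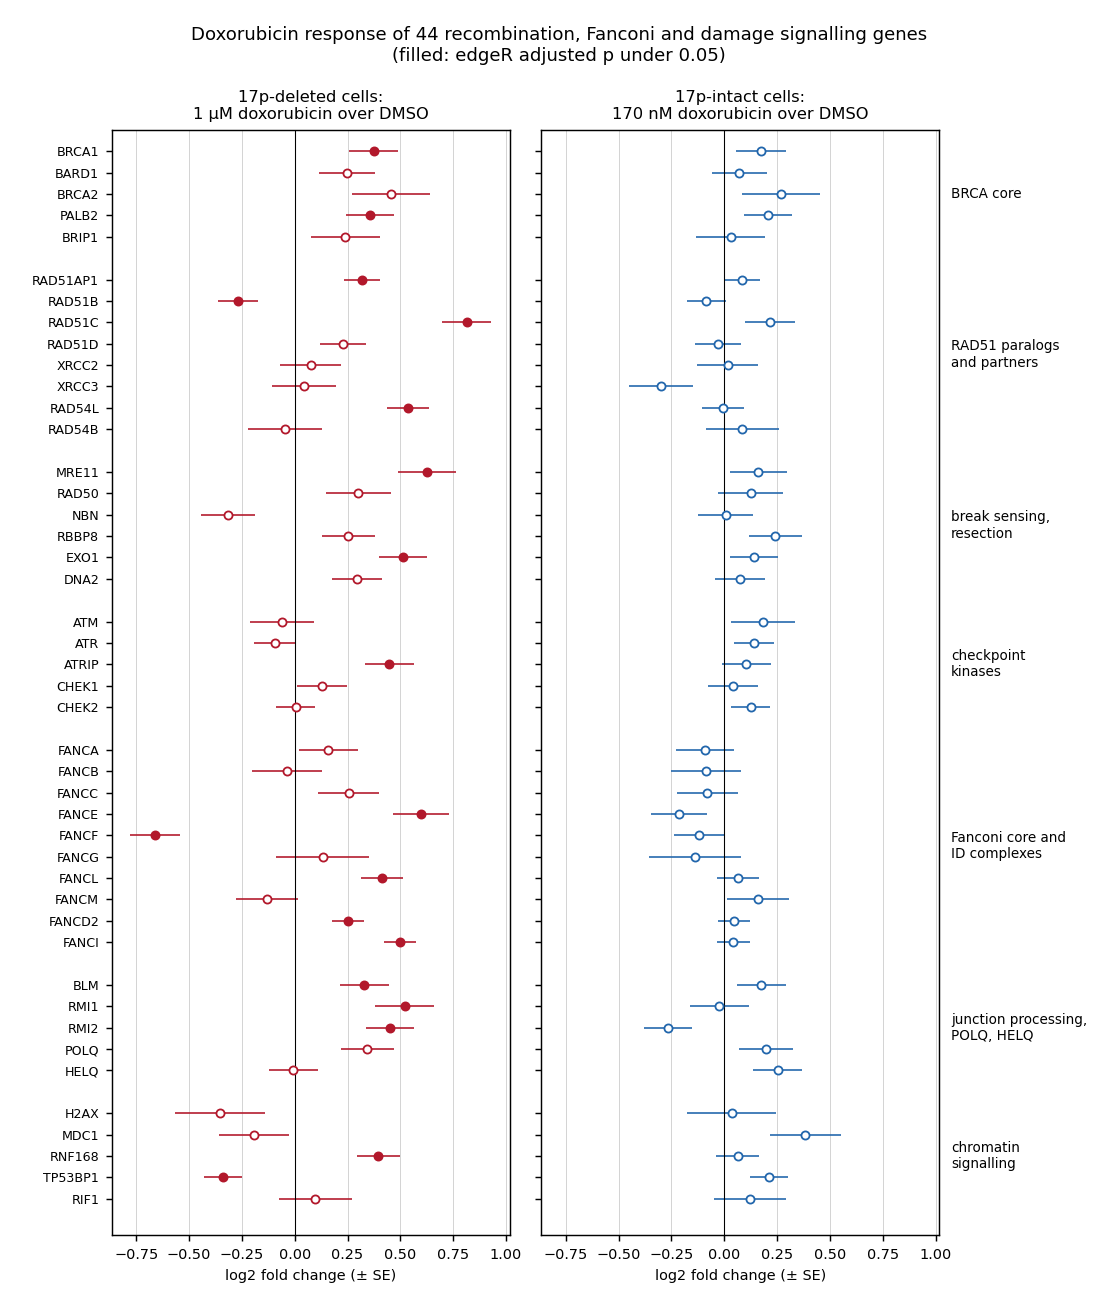
Log2 fold change of each of the 44 members after doxorubicin against DMSO, with its standard error from the edgeR fit, in 17p-deleted cells (1 µM) and in 17p-intact cells (170 nM), grouped by role. Filled points are past an adjusted p of 0.05: 16 higher and 3 lower in 17p-deleted cells, 0 in 17p-intact cells.

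Among the partners of the recombinase, RAD51C rose most of all members. This paralog sits in the complexes that stabilise the recombinase filament and is a tumour suppressor of breast and ovary. It had 85.48, 98.99 and 81.62 CPM in treated 17p-deleted libraries, against 43.3, 59.4 and 48.6 CPM in 17p-deleted libraries in DMSO. The lowest treated library lay well above the highest DMSO library, and the log2 fold change was 0.81 (SE 0.12, edgeR adjusted p = 1.25e-04). RAD54L, the motor protein that remodels the strand-exchange intermediate, had 57.9, 54.9 and 58.5 CPM in treated libraries, against 39.3, 35.1 and 43.8 CPM in DMSO. Its groups did not overlap either, with a log2 fold change of 0.54 (SE 0.10, edgeR adjusted p = 0.00101). RAD51AP1, which assists strand pairing, rose by 0.32. RAD51B, another paralog, fell: it had 12.6, 13.0 and 12.8 CPM in treated libraries, against 16.2, 14.2 and 15.9 CPM in DMSO, a log2 fold change of -0.27 (SE 0.09, edgeR adjusted p = 0.0425). The 4 others, RAD51D, XRCC2, XRCC3 and RAD54B, did not pass, with log2 fold changes of 0.23, 0.08, 0.04 and -0.05. The paralogs thus showed fold changes of both signs, though RAD51B missed the threshold in 14 of 22 alternatives.

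Of the 5 genes of the BRCA core 2 rose, and all 5 fold changes were above 0, with a median log2 fold change of 0.36. BRCA1, the ubiquitin ligase that promotes resection, had 188, 194 and 192 CPM in treated 17p-deleted libraries, against 139, 173 and 131 CPM in 17p-deleted libraries in DMSO. The highest of the DMSO values belonged to replicate 2, one of the libraries that stood apart, and the log2 fold change was 0.37 (SE 0.12, edgeR adjusted p = 0.0274). PALB2, the bridge between BRCA1 and BRCA2, had 89.5, 90.3 and 90.2 CPM in treated libraries, against 67.5, 83.3 and 60.2 CPM in DMSO, a log2 fold change of 0.36 (SE 0.11, edgeR adjusted p = 0.0299). Both missed the threshold without replicate 1 or 3 of the 17p-deleted DMSO group and without each treated 17p-deleted library in turn, with edgeR adjusted p-values of up to 0.110 for BRCA1 and 0.126 for PALB2. BRCA2, which delivers the recombinase to single-stranded DNA, had 114, 113 and 114 CPM in treated libraries, against 77.5, 101.3 and 69.8 CPM in DMSO. Its groups did not overlap, but the log2 fold change of 0.46 did not pass (SE 0.19, edgeR adjusted p = 0.0789). Without replicate 2 of the 17p-deleted DMSO group it was 0.61 and passed (edgeR adjusted p = 0.0168). BARD1, the partner of BRCA1, and BRIP1, a helicase bound by BRCA1, had log2 fold changes of 0.25 and 0.24 and did not pass.

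Of the 6 genes of break sensing and end resection 2 rose. MRE11, the nuclease that opens the end, had 80.5, 81.3 and 83.7 CPM in treated 17p-deleted libraries, against 50.1, 59.8 and 49.0 CPM in 17p-deleted libraries in DMSO. The treated libraries were nearly level with one another and all above the DMSO libraries, with a log2 fold change of 0.63 (SE 0.14, edgeR adjusted p = 0.00308). EXO1, the exonuclease of long-range resection, rose by 0.51 (SE 0.11, edgeR adjusted p = 0.00355). The other subunits of the MRN complex did not pass: RAD50 had a log2 fold change of 0.30 and NBN one of -0.32, with edgeR adjusted p-values of 0.162 and 0.0830. RBBP8, which encodes the resection cofactor CtIP, and DNA2, the second long-range nuclease, had 0.25 and 0.30 and did not pass.

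Of the 5 checkpoint genes 1 rose and 4 did not pass. ATM, ATR, CHEK1 and CHEK2 had log2 fold changes of -0.06, -0.10, 0.13 and 0.0048 in 17p-deleted cells, each with a standard error between 0.09 and 0.15, and none passed. ATM had 81.9, 79.7 and 82.7 CPM in treated 17p-deleted libraries, against 83.2, 91.9 and 79.4 CPM in 17p-deleted libraries in DMSO. The groups overlapped for ATM, CHEK1 and CHEK2, and those of ATR lay next to each other without overlap. ATRIP, the partner that brings ATR to single-stranded DNA, rose, with 18.7, 19.0 and 18.6 CPM in treated libraries, against 15.0, 11.5 and 14.7 CPM in DMSO. Its log2 fold change was 0.45 (SE 0.12, edgeR adjusted p = 0.0102), and 0.23 (edgeR adjusted p = 0.0538) once each library's trend with GC content was removed.

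Of the 10 Fanconi genes 4 rose and 1 fell. FANCI, the most abundant member by CPM, had 339, 317 and 318 CPM in treated 17p-deleted libraries, against 236, 215 and 238 CPM in 17p-deleted libraries in DMSO. Each treated library lay above each of the others, with a log2 fold change of 0.50 (SE 0.08, edgeR adjusted p = 2.25e-04). Its partner FANCD2 also rose, with 121.7, 120.4 and 121.8 CPM in treated libraries, against a mean of 101.8 ± 0.8 CPM in DMSO (SD, n = 3) and no overlap, a log2 fold change of 0.25 (SE 0.07, edgeR adjusted p = 0.0196). Within the core complex, FANCE, the subunit that binds FANCD2, had 21.2, 17.9 and 22.1 CPM in treated libraries, against 15.3, 10.6 and 14.5 CPM in DMSO. It rose by 0.60 (SE 0.13, edgeR adjusted p = 0.00374). FANCF, the adaptor that holds the core together, had 8.29, 7.18 and 7.63 CPM in treated libraries, against 13.0, 11.6 and 11.9 CPM in DMSO. FANCF fell further than any other member, with a log2 fold change of -0.66 (SE 0.12, edgeR adjusted p = 7.71e-04) and no overlap between the groups. FANCL, the ubiquitin ligase subunit, rose by 0.41, and FANCA, FANCB, FANCC, FANCG and FANCM did not pass, with log2 fold changes between -0.13 and 0.26.

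Among the helicases and junction enzymes 3 of 5 rose, and these 3 act in 1 complex. BLM, the helicase lost in Bloom syndrome, and its partners RMI1 and RMI2 dissolve double Holliday junctions. RMI1 had 89.8, 84.8 and 88.8 CPM in treated 17p-deleted libraries, against 55.9, 70.5 and 57.1 CPM in 17p-deleted libraries in DMSO, a log2 fold change of 0.52 (SE 0.14, edgeR adjusted p = 0.0121). RMI2 and BLM rose by 0.45 and 0.33, with edgeR adjusted p-values of 0.00837 and 0.0462. BLM missed the threshold in 11 of 22 alternatives, and RMI1 and RMI2 in 1 each. POLQ, the polymerase of microhomology-mediated joining, had a log2 fold change of 0.34 and narrowly missed the threshold (edgeR adjusted p = 0.0552). HELQ, a helicase that acts at stalled forks, had -0.0060 and overlapping groups.

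Of the 5 chromatin proteins, 1 rose, 1 fell and 3 did not pass. RNF168, the ubiquitin ligase that marks histones around breaks, rose by 0.40 (SE 0.10, edgeR adjusted p = 0.00936). TP53BP1 encodes 53BP1, which reads that mark and restrains resection. It had 179, 170 and 178 CPM in treated 17p-deleted libraries, against 233, 223 and 211 CPM in 17p-deleted libraries in DMSO, and fell by 0.34 on the log2 scale (SE 0.09, edgeR adjusted p = 0.00983). H2AX had 76.8, 70.1 and 77.5 CPM in treated libraries, against 112, 64.4 and 110 CPM in DMSO. The low DMSO value came from replicate 2, and with it the groups overlapped and H2AX did not pass (log2 fold change -0.35, SE 0.21, edgeR adjusted p = 0.234). Without that library the log2 fold change was -0.59 (SE 0.17, edgeR adjusted p = 0.0162). MDC1, the scaffold that binds phosphorylated H2AX, had -0.19. RIF1, the effector of 53BP1 and the highest in CPM among those below the threshold, had 221, 230 and 220 CPM in treated libraries, against 206, 244 and 176 CPM in DMSO, a log2 fold change of 0.10 (SE 0.17, edgeR adjusted p = 0.718).

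**Figure D2:**
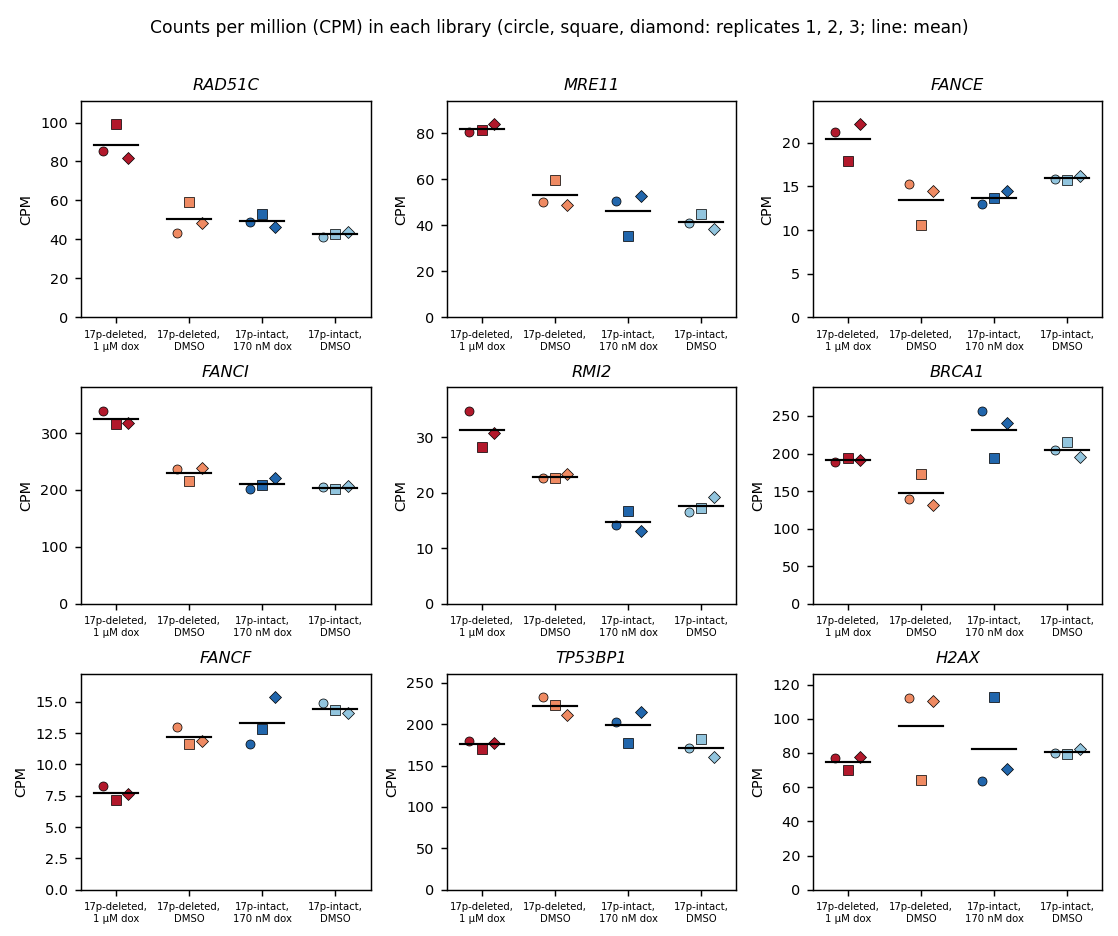
CPM of single members in each of the 12 libraries (points) with the mean of each group of 3 (line), on axes that start at 0. Groups run from treated 17p-deleted (1 µM) and 17p-deleted in DMSO to treated 17p-intact (170 nM) and 17p-intact in DMSO. RAD51C reaches 81.6 CPM or more in the treated 17p-deleted libraries and at most 59.4 CPM in the others.

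The start regions of 3 members that rose and 2 that fell are shown because these genes moved in opposite directions in the same libraries. Promoters were taken from RefSeq (GRCh38.p14), which matched 39 of the 44 members; RAD54B, NBN, FANCI, RMI2 and DNA2 are not shown. Each stretch gives the 130 bases before the annotated start, 5′ to 3′ on the strand of the gene, with the letters CCAAT, the core of the NF-Y box, or its reverse complement in capitals.
RAD51C: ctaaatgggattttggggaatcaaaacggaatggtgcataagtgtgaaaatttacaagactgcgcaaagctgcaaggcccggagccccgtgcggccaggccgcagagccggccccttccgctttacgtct
MRE11: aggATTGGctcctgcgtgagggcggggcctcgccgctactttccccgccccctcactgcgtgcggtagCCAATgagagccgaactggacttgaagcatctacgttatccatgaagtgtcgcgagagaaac
RAD54L: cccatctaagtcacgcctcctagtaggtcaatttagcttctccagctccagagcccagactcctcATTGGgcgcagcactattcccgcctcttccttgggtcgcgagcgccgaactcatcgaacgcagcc
FANCF: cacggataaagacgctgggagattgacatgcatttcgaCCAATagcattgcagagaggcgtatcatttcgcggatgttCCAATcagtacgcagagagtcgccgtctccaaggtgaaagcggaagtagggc
TP53BP1: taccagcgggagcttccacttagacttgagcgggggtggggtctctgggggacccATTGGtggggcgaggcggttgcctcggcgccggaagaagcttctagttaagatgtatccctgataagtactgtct
The stretch of RAD51C (chr17:58692443-58692572, plus strand) holds no CCAAT. MRE11 (chr11:94493845-94493974, minus strand) and FANCF (chr11:22625824-22625953, minus strand) hold 2 each, and RAD54L (chr1:46247558-46247687, plus strand) and TP53BP1 (chr15:43510641-43510770, minus strand) hold 1 each. The box thus occurs beside genes of either direction. Over the window of 250 bases before to 50 after the start, on both strands, CCAAT was found in 20 of 39 members (51.3%), against 34.6% of 35116 promoters. It was found in 7 of 14 members that rose, 2 of 3 that fell and 11 of 22 that did not pass. An E2F motif (TTTGGCGC, TTTGCCGC, TTTCGCGC or TTTCCCGC) was found in 5 of 39 members (12.8%), against 3.31% of all promoters, and a CHR element (TTTGAA or TTCGAA) in 8 of 39 (20.5%), against 16.4%. All 8 members with the CHR letters were among the 22 that did not pass, and 0 of the 14 that rose held them. That split depends on the setting. Of these 8, POLQ was called higher with DESeq2 and limma-voom. With the GC trend removed POLQ and BRIP1 were called higher and H2AX lower. The motif matches describe letters in a window and say nothing of whether a factor binds there.

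In 17p-intact cells, 170 nM doxorubicin moved 0 of the 44 members past the threshold (edgeR adjusted p), where 0.0275% of all genes rose and 0.0321% fell. DESeq2 and limma-voom also called 0 members. At an unadjusted edgeR p under 0.05 there were 3 members of 44, beside 11.5% of all genes tested. The members' median log2 fold change was 0.07, within a range of -0.30 (XRCC3) to 0.38 (MDC1), against 0.01 over all genes. Without replicate 2 of the treated 17p-intact group, 0 members passed, where 0.264% of all genes rose and 0.0925% fell. In that setting 17 members had an unadjusted edgeR p under 0.05. The share of all genes at that p was not computed there, so this count has no background to be read against. The members' median in that setting was 0.15, against -0.02 over all genes.

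FANCI, the most abundant, had 202, 208 and 221 CPM in treated 17p-intact libraries, against 204, 201 and 207 CPM in 17p-intact libraries in DMSO (log2 fold change 0.04, SE 0.08, edgeR adjusted p = 0.873). RAD51C had 49.1, 53.1 and 46.6 CPM in treated 17p-intact libraries, against 41.4, 42.9 and 43.9 CPM in DMSO, and its groups did not overlap, but the log2 fold change of 0.22 did not pass (SE 0.12, edgeR adjusted p = 0.506). H2AX had 63.7, 113 and 70.9 CPM in treated 17p-intact libraries, against 80.1, 79.2 and 82.1 CPM in DMSO. The high value was that of replicate 2, the library in which RIF1 was lowest, at 107 CPM against 185 and 178 CPM in the other treated 17p-intact libraries. The log2 fold changes of BRCA1, BRCA2, PALB2 and FANCD2 were 0.17, 0.27, 0.21 and 0.05. Those of ATM, ATR, CHEK1, CHEK2 and TP53BP1 were 0.18, 0.14, 0.04, 0.13 and 0.21. Across the 44 members, 26 had the same sign in both cell populations, beside 52.7% of all genes, in comparisons that share no library.

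The difference between the doxorubicin effects was tested as an interaction, with the effect of 170 nM in 17p-intact cells subtracted from that of 1 µM in 17p-deleted cells. The effect was higher in 17p-deleted cells for 5 members and lower for 2, beside 10.3% and 6.74% of all genes tested. Higher were FANCE (difference of log2 fold changes 0.81), RMI2 (0.72), RAD51C (0.60), RAD54L (0.54) and FANCI (0.46), and lower were TP53BP1 (-0.55) and FANCF (-0.54). The median over the 44 members was 0.18, against -0.03 over all genes. It was 0.06, against 0.01 over all genes, without replicate 2 of the treated 17p-intact group, and 0.11, against -0.19, with the GC trend removed. For the other 37 members a difference between the populations was not shown, and MRE11, which was past the threshold in 17p-deleted cells alone, had 0.47 (SE 0.19, edgeR adjusted p = 0.120). BRCA1, BRCA2, PALB2 and FANCD2 had differences of 0.20, 0.19, 0.15 and 0.21. ATM, ATR, CHEK1, CHEK2 and H2AX had -0.24, -0.24, 0.09, -0.12 and -0.39, and none of these 9 passed. MDC1 had the lowest difference of all members, -0.58, with an edgeR adjusted p of 0.115. Without replicate 2 of the treated 17p-intact group it was -0.70 and passed (edgeR adjusted p = 0.0322), as MDC1 also did without a filter and with the GC trend removed. Of the 9 genes above, H2AX passed with the GC trend removed, at -0.88 (edgeR adjusted p = 2.13e-05). Without the 2 libraries of high mitochondrial share H2AX, BRCA1 and PALB2 passed, at -0.77, 0.39 and 0.35. ATR passed without replicate 2 of the treated 17p-intact group, at -0.33. BRCA2, FANCD2, ATM, CHEK1 and CHEK2 passed in no alternative.

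**Figure D3:**
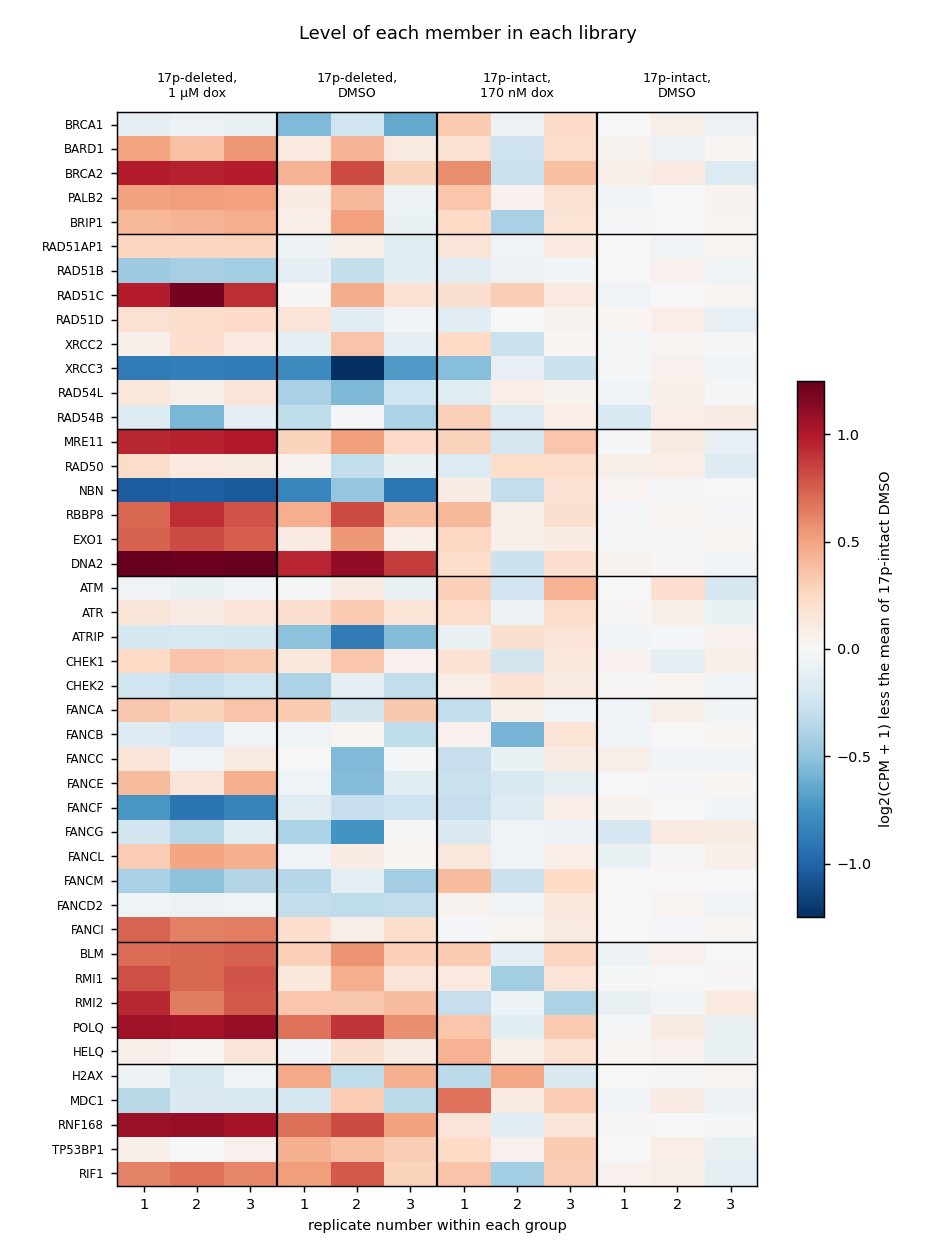
Log2(CPM + 1) of each of the 44 members in each library minus the member's mean over the 17p-intact DMSO libraries, with libraries in columns by group and members in rows by role. FANCE, FANCI, RAD51C and RMI2 are highest in the treated 17p-deleted libraries, and replicate 2 of the 17p-deleted DMSO group differs from its neighbours across many members.

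The genotype label was compared in DMSO, where no drug is present. In 17p-deleted against 17p-intact cells 9 members were higher and 7 lower (edgeR adjusted p under 0.05), beside 18.8% and 16.2% of all genes tested. Their median log2 difference was 0.08, against 0.04 over all genes, and the range was -0.94 to 0.99. The median was near 0 and not stable in sign: it was -0.0069 without replicate 2 of the 17p-deleted DMSO group, -0.02 without the 2 libraries of high mitochondrial share, and 0.02 without treated 17p-deleted replicate 1. Any other difference between the cell populations goes with this label. Without the 2 libraries of high mitochondrial share 8 members were higher and 10 lower, beside 18.2% and 18.6% of all genes. The count of higher members fell to 5 without treated 17p-deleted replicate 1, 2 or 3, beside 14.3%, 14.6% and 14.1% of all genes. It was also 5 without replicate 1 or 2 of the 17p-intact DMSO group, beside 13.6% and 12.8%. The share of all genes thus fell as well, from 18.8%.

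The counts of higher and lower members lay near the shares of all genes, and the 9 higher members came from several roles. Break sensing and end resection held 2 higher members and 1 lower. DNA2 had 146, 162 and 138 CPM in 17p-deleted libraries in DMSO, against 77.0, 75.4 and 71.9 CPM in 17p-intact libraries in DMSO, a log2 difference of 0.99 (SE 0.12, edgeR adjusted p = 3.07e-05). POLQ had 84.9, 98.5 and 79.4 CPM in 17p-deleted libraries, against 51.9, 57.2 and 49.4 CPM in 17p-intact libraries, a log2 difference of 0.73 (SE 0.13, edgeR adjusted p = 6.01e-04). RNF168 had 76.0, 82.9 and 66.8 CPM in 17p-deleted libraries, against 47.1, 46.7 and 46.3 CPM in 17p-intact libraries, a log2 difference of 0.69 (SE 0.10, edgeR adjusted p = 1.71e-04). In these 3 genes each 17p-deleted library lay above each 17p-intact library. RBBP8 was higher by 0.58 and RIF1 by 0.54 on the log2 scale. BRCA2, BLM, TP53BP1 and RMI2 were higher by 0.53, 0.40, 0.38 and 0.37. BRCA2, BLM and RIF1 did not pass without replicate 2 of the 17p-deleted DMSO group, with log2 differences of 0.34, 0.28 and 0.39. Their edgeR adjusted p-values there were 0.159, 0.0720 and 0.0932. These calls did not hang on that library alone: BRCA2, RIF1, BLM and RMI2 missed the threshold in 12, 9, 8 and 8 of 22 alternatives.

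The 7 lower members came from several complexes. XRCC3, a recombinase paralog that also guards stalled forks, had 29.6, 19.7 and 31.3 CPM in 17p-deleted libraries in DMSO, against 50.8, 53.8 and 50.3 CPM in 17p-intact libraries in DMSO, a log2 difference of -0.94 (SE 0.15, edgeR adjusted p = 3.44e-04). NBN, the MRN subunit that recruits ATM, had 65.0, 82.1 and 60.9 CPM in 17p-deleted libraries, against 117, 113 and 115 CPM in 17p-intact libraries, a log2 difference of -0.73 (SE 0.13, edgeR adjusted p = 6.82e-04). Neither gene had overlapping groups, though XRCC3 shares most of its exon bases with KLC1. ATRIP was lower by 0.67, BRCA1 by 0.47 and RAD54L by 0.41. FANCD2 and CHEK2 were lower by 0.31 and 0.28. CHEK2, and RMI2 among the higher members, missed the threshold without single libraries of the 17p-deleted and 17p-intact DMSO groups, with edgeR adjusted p-values of up to 0.133 and 0.130. ATRIP, BRCA1, RAD54L and FANCD2, which rose with doxorubicin in 17p-deleted cells, were thus lower in those cells than in 17p-intact cells in DMSO. Both comparisons use the same 17p-deleted DMSO libraries. FANCI, PALB2, CHEK1, ATR and H2AX had log2 differences of 0.17, 0.17, 0.18, 0.24 and 0.25, ATM had -0.0074, and none of these passed.

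Under doxorubicin, where 17p-deleted cells had received 1 µM and 17p-intact cells 170 nM, 18 members were higher and 8 lower (edgeR adjusted p under 0.05), beside 25.9% and 21.9% of all genes tested. Their median log2 difference was 0.18, against 0.02 over all genes. DNA2 had 187, 176 and 184 CPM in treated 17p-deleted libraries, against 87.6, 61.8 and 86.7 CPM in treated 17p-intact libraries, and its log2 difference of 1.21 was the largest of the members (SE 0.12, edgeR adjusted p = 2.27e-06). RMI2 had 34.8, 28.2 and 30.7 CPM in treated 17p-deleted libraries, against 14.2, 16.7 and 13.2 CPM in treated 17p-intact libraries, a log2 difference of 1.09 (SE 0.12, edgeR adjusted p = 4.03e-06). RNF168, POLQ and RAD51C were higher by 1.02, 0.88 and 0.84. The groups of DNA2 and RMI2 stood far apart, with the lowest treated 17p-deleted library well above the highest treated 17p-intact one. MRE11, RMI1, BRCA2 and EXO1 were higher by 0.82, 0.80, 0.71 and 0.63, and FANCI, RBBP8, FANCE, BLM and RIF1 by 0.52 to 0.63. FANCA, BARD1, FANCL and PALB2 were higher by 0.31 to 0.42. Without replicate 2 of the treated 17p-intact group, BARD1, PALB2, RIF1 and ATRIP missed the threshold, with log2 differences of 0.23, 0.21, 0.27 and -0.31, and FANCA did so without replicate 1 of that group, with 0.28.

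NBN was the lowest member in this comparison, with 55.5, 56.4 and 55.2 CPM in treated 17p-deleted libraries, against 124, 92.6 and 130 CPM in treated 17p-intact libraries, a log2 difference of -1.05 (SE 0.13, edgeR adjusted p = 1.70e-05). FANCF, with the levels given above in treated 17p-deleted libraries, had 11.6, 12.8 and 15.4 CPM in treated 17p-intact libraries, and was lower by 0.79 on the log2 scale. MDC1, XRCC3, FANCM, CHEK2, RAD51B and ATRIP were lower by 0.63, 0.60, 0.60, 0.40, 0.38 and 0.33. ATRIP missed the threshold in 6 of 22 alternatives, with edgeR adjusted p-values of up to 0.159. FANCM is the translocase that anchors the Fanconi core to DNA. BRCA1, the highest in CPM of those that missed the threshold, had 188, 194 and 192 CPM in treated 17p-deleted libraries, against 257, 194 and 241 CPM in treated 17p-intact libraries (log2 difference -0.27, SE 0.12, edgeR adjusted p = 0.0727). TP53BP1, FANCD2, ATM, CHEK1 and H2AX had -0.18, -0.11, -0.25, 0.28 and -0.14 and did not pass either, and ATR had 0.0023.

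**Figure D4:**
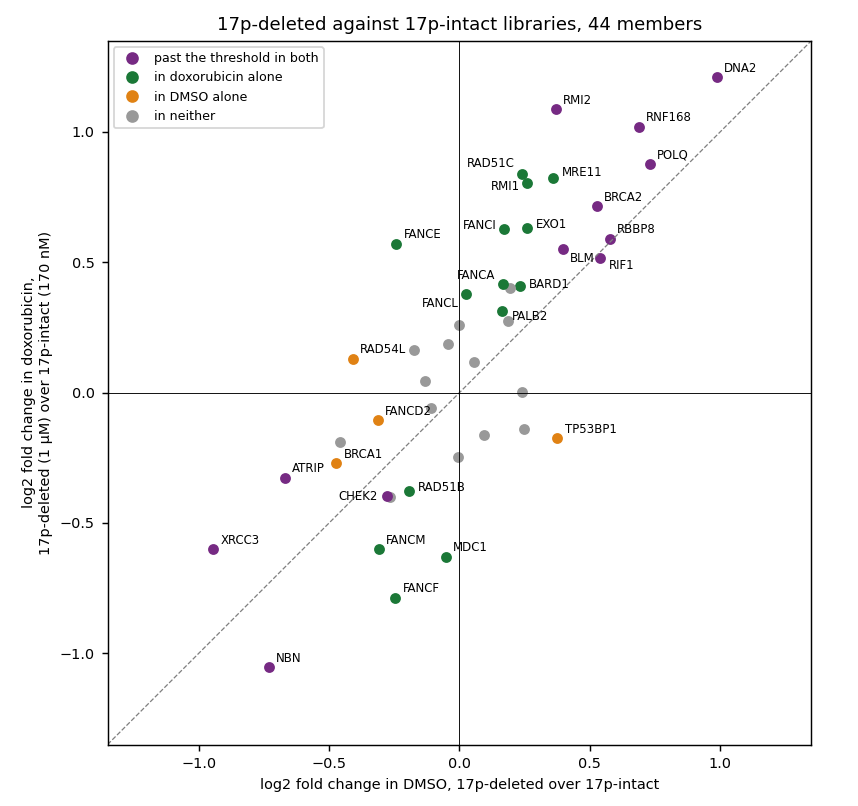
Log2 difference of 17p-deleted over 17p-intact libraries for each of the 44 members, in DMSO (horizontal axis) and in doxorubicin (vertical axis, 1 µM over 170 nM), with the line of equality dashed. DNA2 and RNF168 are high and NBN is low on both axes, RAD51C and MRE11 pass the threshold in doxorubicin alone, and RAD54L, FANCD2, BRCA1 and TP53BP1 in DMSO alone.

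These comparisons in DMSO and in doxorubicin share no library, and 35 of the 44 members had the same sign in both, beside 71.7% of all genes tested. Of the members past the threshold 12 were called in both, all in the same direction, 8 higher (BRCA2, BLM, DNA2, POLQ, RBBP8, RIF1, RMI2 and RNF168) and 4 lower (ATRIP, CHEK2, NBN and XRCC3). They make up 75.0% of the 16 called in DMSO and 46.2% of the 26 called in doxorubicin. In DMSO BRCA2, RIF1, BLM, RMI2 and CHEK2 missed the threshold in 12, 9, 8, 8 and 5 of 22 alternatives. In doxorubicin ATRIP and RIF1 missed it in 6 and 4 of 22. Over all genes, those called in both in the same direction make up 66.6% of the genes called in DMSO and 48.7% of those called in doxorubicin, so the members' shares lay near the background.

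Of 70 further genes of the same pathways 69 were tested, all but SLX1A. In 17p-deleted cells 14 rose and 6 fell with 1 µM doxorubicin, with a median log2 fold change of 0.10, beside 17.5% and 13.1% of all genes tested. In 17p-intact cells 0 of them passed at 170 nM, with 10 at an unadjusted edgeR p under 0.05, beside 11.5% of all genes. PPM1D, the phosphatase that switches the damage signal off, rose by 1.98 (SE 0.16, edgeR adjusted p = 6.95e-07), more than any of the 44 members. TIMELESS, a fork protection protein, rose by 0.61, HROB, which loads a helicase for recombination, by 0.55, and FBH1, a helicase that limits recombination, by 0.46. EME1, a subunit of a junction nuclease, rose by 0.26 and UIMC1, which encodes RAP80, by 0.34. BABAM2, which sits with UIMC1 in the BRCA1-A complex, fell by 0.87 on the log2 scale (SE 0.09, edgeR adjusted p = 9.05e-06). In DMSO 15 of these genes were higher and 12 lower in 17p-deleted than in 17p-intact cells, beside 18.8% and 16.2% of all genes, and under doxorubicin 17 were higher and 17 lower, beside 25.9% and 21.9%. These shares lie near the background. RADX, which limits the recombinase at forks, was lower by 2.94 on the log2 scale in DMSO, while SWI5, a recombinase mediator, was higher by 1.30. HUS1, of the checkpoint clamp, was higher by 0.89.

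A list of 18 cell cycle genes is given beside the members because many repair genes are transcribed in S phase. In 17p-deleted cells 5 rose and 7 fell with doxorubicin, beside 17.5% and 13.1% of all genes tested, with a median log2 fold change of -0.11, against 0.25 for the members. That median pools genes that moved apart. The 5 that rose act in DNA replication or at its start: TYMS by 1.13, PCNA by 0.93, CCNE2 by 0.52, CDC6 by 0.51 and RRM2 by 0.46. The 7 that fell were PLK1 (-2.20), AURKA (-1.92), CCNB1 (-1.78), CCNA2 (-1.254), BUB1 (-1.17), CENPF (-0.98) and TOP2A (-0.63), most of which act in G2 or mitosis. The 6 that did not pass were CDT1 (0.45), MCM3 (0.16), MCM2 (0.14), CDK1 (-0.07), MCM5 (-0.14) and MKI67 (-0.33). The replication genes CDT1, MCM2, MCM3 and MCM5 were thus not among those called higher. The division into replication and G2 or mitosis genes was made after the values were seen. In DMSO 8 were higher and 2 lower in 17p-deleted than in 17p-intact cells, beside 18.8% and 16.2% of all genes, with a median of 0.24. The part of the cell cycle in the values of the members was not tested.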

How the data were processed

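Per the labels, total RNA of 12 libraries was prepared with the KAPA RNA Hyper Prep kit and sequenced as paired ends on a NovaSeq. The deposited file holds raw counts, 1 column a library. Per the submitters' processing notes, bcl2fastq, STAR 2.7.9a and featureCounts of Subread 2.0.1 were used, with the build hg38. Neither the annotation release nor the strand option of featureCounts is stated there: not given in the sources used here.

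Counts were tested with edgeR 4.0.16 (R 4.3.3) by the quasi-likelihood test, with TMM scaling and the filter filterByExpr, all 12 libraries in 1 fit of 4 groups, and Benjamini-Hochberg adjustment over 21803 genes at 0.05. CPM use TMM-scaled totals. RPKM were computed from the counts and the exon length of GENCODE 29 (hg38), which places 58429 of the 60660 identifiers. Alternatives were other scalings and filters, DESeq2 1.42.0, limma-voom (limma 3.58.1), a replicate block, removal of each library's GC trend (loess, span 0.5), the compared groups alone, and omitted libraries.

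Named in each comparison were the same 10 members, up to 5 with the largest and 5 with the smallest change past the threshold, and the member of highest CPM below it. Of the pathway list, up to 2 genes a role with the lowest p were eligible, and other members were named within their role. Members, lists and tests were chosen with earlier results of these data known.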

Additional observations from a re-analysis of the deposited data

Results flagged for a closer look

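The effect of doxorubicin differed between 17p-deleted cells (1 µM) and 17p-intact cells (170 nM) for 7 of the 44 members. This rests on the interaction term of the edgeR fit (Benjamini-Hochberg over 21803 genes). The effect was higher in 17p-deleted cells for 5 members and lower for 2, beside 10.3% and 6.74% of all genes tested. These counts lie near the background. Genotype and dose cannot be told apart in these differences. RAD51C had a log2 fold change of 0.81 in 17p-deleted cells and 0.22 in 17p-intact cells, a difference of 0.60 (SE 0.17, adjusted p = 0.0236). RAD54L had 0.54 in 17p-deleted cells and -0.0046 in 17p-intact cells, a difference of 0.54 (SE 0.14, adjusted p = 0.0172). FANCE had 0.60 in 17p-deleted cells and -0.22 in 17p-intact cells, a difference of 0.81 (SE 0.19, adjusted p = 0.00895). FANCI had 0.50 in 17p-deleted cells and 0.04 in 17p-intact cells, a difference of 0.46 (SE 0.11, adjusted p = 0.0103). RMI2 had 0.45 in 17p-deleted cells and -0.27 in 17p-intact cells, a difference of 0.72 (SE 0.16, adjusted p = 0.00758). TP53BP1 had -0.34 in 17p-deleted cells and 0.21 in 17p-intact cells, a difference of -0.55 (SE 0.13, adjusted p = 0.00775). FANCF had -0.66 in 17p-deleted cells and -0.12 in 17p-intact cells, a difference of -0.54 (SE 0.17, adjusted p = 0.0395). FANCE, FANCI, RMI2 and TP53BP1 passed under each of the alternatives run. FANCF missed the threshold under the replicate block, with library totals as scaling, without a filter and without 9 of the 12 libraries in turn. RAD51C missed it without replicate 2 of the treated 17p-deleted group, replicate 1 of the 17p-deleted DMSO group, replicate 3 of the treated 17p-intact group or replicate 3 of the 17p-intact DMSO group. RAD54L missed it with the GC trend removed, and without replicate 1 of the treated 17p-intact group or replicate 2 of the 17p-intact DMSO group.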

How the results depend on the processing

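Under 22 alternatives (21 for the difference of the effects), 10 of the 19 members called after 1 µM doxorubicin in 17p-deleted cells were called in each, as were 11 of 16 for genotype in DMSO, 20 of 26 for genotype in doxorubicin and 4 of 7 for the difference of the effects. In 17p-deleted cells BRCA1 and PALB2 missed the threshold without each treated library in turn and without replicate 1 or 3 in DMSO, as did FANCD2, BLM and RAD51B, of which the last 2 also missed it without several 17p-intact libraries. RMI1 missed it without replicate 1 in DMSO, RMI2 without treated replicate 1, and RAD51AP1 without replicate 3 in DMSO. Leaving out single libraries gave 11 to 21 higher and 2 to 4 lower members there. The shares of all genes were 13.8% to 18.4% and 9.12% to 14.8%. Genotype in DMSO had 5 to 11 higher and 6 to 8 lower, beside 12.8% to 18.4% and 12.4% to 18.2%. Genotype in doxorubicin had 14 to 19 higher and 7 to 12 lower, beside 20.8% to 26.7% and 19.2% to 25.0%. The difference of the effects had 4 to 7 higher and 1 to 6 lower, beside 7.82% to 10.6% and 4.12% to 9.64%. The 6 lower came without replicate 2 of the treated 17p-intact group, where 9.64% of all genes were lower. In 17p-intact cells each setting called 0 members after doxorubicin.

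With the GC trend removed, 21 members rose and 6 fell in 17p-deleted cells, 15 were lower for genotype in doxorubicin, and 7 were higher and 5 lower for the difference of the effects. That setting moved the median of all genes to -0.13, -0.14 and -0.19 in these 3 comparisons, against -0.02, 0.02 and -0.03. The shares of all genes higher and lower became 16.8% and 24.7%, against 17.5% and 13.1%, then 23.1% and 33.0%, against 25.9% and 21.9%, and 9.93% and 20.7%, against 10.3% and 6.74%. With library totals as scaling, 11 members were higher and 1 lower for the difference of the effects, and 11.6% and 4.68% of all genes, with a median of 0.08. Without the 2 libraries of high mitochondrial share 12 were higher and 3 lower, beside 11.2% and 9.72% of all genes. The causes were not tested.

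Whether replicate numbers pair the samples is not known. Correlations of the deviations of same-numbered libraries from their group means lay between -0.22 and 0.12, which does not settle it. With the number as a replicate block, 13 members rose and 2 fell in 17p-deleted cells, beside 15.9% and 11.1% of all genes, and the difference of the effects had 5 higher and 1 lower, beside 8.56% and 4.80%.

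Sign changes touched members that did not pass. In 17p-deleted cells CHEK2 (0.0048) was -0.0085 with a filter of 1 CPM and -0.014 with the GC trend removed, and -0.060 to 0.074 over omitted libraries, where RIF1 ran from -0.011 to 0.21. In 17p-intact cells CHEK1, FANCD2, FANCI and H2AX were -0.038, -0.029, -0.031 and -0.035 with library totals. With a filter of 1 CPM CHEK1 was -0.0001 and H2AX -0.0040, with limma-voom H2AX was -0.012, and without the high mitochondrial libraries CHEK1 was -0.032. Over omitted libraries CHEK1 ran from -0.033 to 0.16 and H2AX from -0.26 to 0.19. For genotype in DMSO ATM was 0.0029 with limma-voom and -0.11 to 0.055 over omitted libraries, and PALB2 was -0.0076 without the high mitochondrial libraries. For genotype in doxorubicin ATR (0.0023) was -0.0092 with RLE, -0.027 unfiltered, -0.0097 with a filter of 1 CPM, -0.0093 with DESeq2, -0.093 with the GC trend removed, -0.038 with the compared groups alone and -0.13 to 0.048 over omitted libraries, where H2AX ran from -0.33 to 0.12. For the difference of the effects, BRCA2 ran from -0.023 to 0.37 and CHEK1 from -0.027 to 0.17 over omitted libraries.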
